A study of Rattus norvegicus with 10 samples.

Results

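Microtubule and neurofilament cytoskeleton genes were read in left hippocampal RNA of 10 male TgF344-AD rats, a Fischer 344 line that models Alzheimer's disease through human transgenes that include mutant APP. The gene set comprised every row of the count table whose symbol starts with Tuba, Tubb or Tubg, and 24 named genes for microtubule-associated proteins, stathmins, neurofilaments, collapsin response mediator proteins and doublecortins. It held 45 of the 17168 rows of the table, and 42 of these passed the filter on low counts, against 12355 rows in all. The 3 others were Tuba3a, Tuba3b and Tubal3, with at most 5 counts in any rat. Untreated rats (n = 5) ate plain rodent chow. Ibudilast rats (n = 5) received chow with ibudilast, a phosphodiesterase inhibitor, from 5 months of age for 6 months. Both groups carried the transgenes and were killed at 11 months, so the data include no wild-type rats. The dose and the promoter of the transgenes are not given in the sources used here.

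Microtubules are hollow polymers of alpha and beta tubulin dimers that start from rings of gamma tubulin. Microtubule-associated proteins bind and stabilise the polymer, Map2 mainly in dendrites and cell bodies, whereas stathmins hold free dimers and favour disassembly. Neurofilaments are the intermediate filaments of neurons, built from light, medium and heavy chains with alpha-internexin, and they set the calibre of large axons. In the hippocampus these genes are expressed mostly by neurons, although several tubulins and Map7 are also made by glia.

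Libraries held 14806807 to 18533520 counts. Levels are given as CPM, counts scaled to a common library size after TMM (a trimmed mean of ratios between libraries). Differences are log2 fold changes, ibudilast over untreated, with the standard error (SE) from edgeR's quasi-likelihood test. A gene was said to rise or fall at an adjusted p under 0.05, with Benjamini-Hochberg adjustment over all 12355 genes. Per the series' design text, all ibudilast samples and none of the untreated had been stored in RNAlater-ICE, a solution for frozen tissue. Treatment and storage cannot be told apart. The animals are separate rats, but cage, litter and extraction day were not given. Untreated replicate 3 had a high astrocyte and microglia marker sum (8791 and 1214 CPM) and ibudilast replicate 4 the lowest neuron marker sum (5729 CPM). Choroid plexus markers summed to 7935 CPM in untreated replicate 2 and 7263 CPM in ibudilast replicate 1, against at most 360.0 CPM in the other 8 rats. Counts are therefore also given without these 4 libraries.

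Levels of 3 of 5 tested alpha tubulins, 4 of 7 beta tubulins, Map2, Map1b, Map1a, the neurofilament light chain Nefl and 3 of 5 collapsin response mediators fell with ibudilast. Map7, both gamma tubulins, the ring protein Tubgcp6 and the stathmins Stmn3 and Stmn4 rose. Of the 42 tested genes, 14 fell (33.3%), 6 rose (14.3%) and 22 did not pass. Among all genes tested, 22.8% fell and 24.3% rose, so that 47.6% of the set changed against a background of 47.1%. The groups did not overlap for 14 of the 42 genes (33.3%, against 33.4% of all genes), with ibudilast below for 12 (15.5% of all genes) and above for 2 (18% of all genes). The share of changed genes in the set was thus near the background. Counts of each role below are to be read against these shares, and differences between roles in these counts were not tested. The median log2 fold change was −0.17 in the set and 0.020 over all genes. Without the 4 libraries that stood apart, 15 genes fell and 8 rose, and the 20 calls made with all rats were among them. Map2 was the only member with a change of at least 2-fold.

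**Figure D1:**
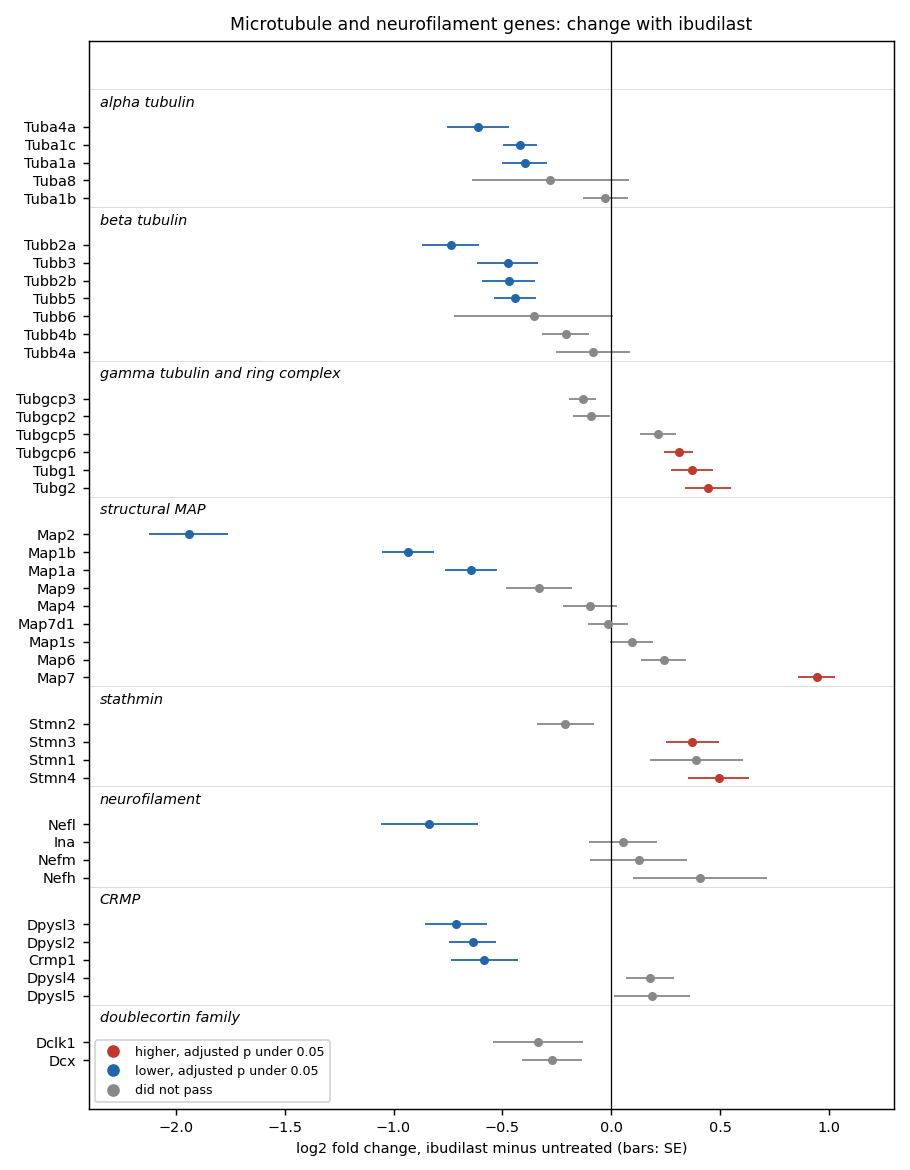
Log2 fold change of each of the 42 tested genes (x axis, ibudilast minus untreated, bars are SE), grouped by role. Tested alpha and beta tubulins lie left of 0. Tuba1b lay right of it with upper-quartile factors, library size alone or, in some fits, 1 rat left out. Map2, at −1.94, and Map7, at 0.94, are the extremes.

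The structural microtubule-associated proteins held the extremes of the set. Of 9, 3 were lower (33.3%, against 22.8% of all genes), 1 higher (11.1%, against 24.3%) and 5 did not pass. Map2, the dendritic protein, was at 1225, 884, 1733, 1225 and 1102 CPM in untreated replicates 1 to 5. In ibudilast replicates 1 to 5 it was at 327, 379, 271, 270.2 and 360.3 CPM. Every ibudilast rat was thus below the lowest untreated rat, and on the log2 scale Map2 fell by 1.94 ± 0.18 (adjusted p = 3.24e-05). Map1b, a protein of growing and adult axons, was at 2599, 2108, 1911, 2469 and 2418 CPM in untreated and at 1064, 1321, 1289.7, 1061 and 1283 CPM in ibudilast rats. It fell by 0.94 ± 0.12 (adjusted p = 1.64e-04), with no overlap. Its relative Map1a, found in mature dendrites and axons, was at 2491, 1966, 2864, 2296 and 2359.7 CPM in untreated and at 1469.7, 1679, 1564, 1330.5 and 1622 CPM in ibudilast rats. Map1a also fell, by 0.64 ± 0.12 (adjusted p = 0.00135), again with no overlap.

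Map7, which recruits the motor kinesin-1 to microtubules, went the other way. It was at 112, 120.0, 103, 124 and 138 CPM in untreated and at 243, 231, 223, 217 and 234 CPM in ibudilast rats. The groups lay far apart relative to their spread, and Map7 rose by 0.94 ± 0.08 (adjusted p = 2.64e-05), from 119 ± 13.3 to 229.6 ± 10.2 CPM (SD, n = 5). Map7 is also expressed by oligodendrocytes. Oligodendrocyte markers were higher beside it, as 8 of 17 rose (47.1%, against 24.3% of all genes) and 0 fell. All 17 were detected in every rat. Their sum was 8410.4 to 16094 CPM in the untreated and 16723 to 20012 CPM in the ibudilast group. Their part in the change of Map7 was not tested. Map4, the broadly expressed member of the Map2 and tau family, was at 717, 717, 553, 788 and 906 CPM in untreated and at 741, 669.8, 718, 625 and 689 CPM in ibudilast rats, which overlapped (−0.097, adjusted p = 0.551). Map1s (0.093, from 91.3 ± 12.3 to 97.3 ± 8.05 CPM), Map7d1 (−0.015, 389 ± 15.4 to 385 ± 44.1 CPM) and Map9 (−0.33, 53.7 ± 5.65 to 42.6 ± 9.44 CPM) did not pass, and Map7d1 was above 0 with upper-quartile factors or library size alone. Map6, the protein of cold-stable microtubules, was at 123 ± 11.6 and 145 ± 18.6 CPM (0.24, adjusted p = 0.0781). It passed without the 4 libraries that stood apart (0.27, adjusted p = 0.0173), without ibudilast replicate 1 (0.31, 0.0139), with upper-quartile factors (0.29, 0.0462) and with library size alone (0.31, 0.0324).

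**Figure D2:**
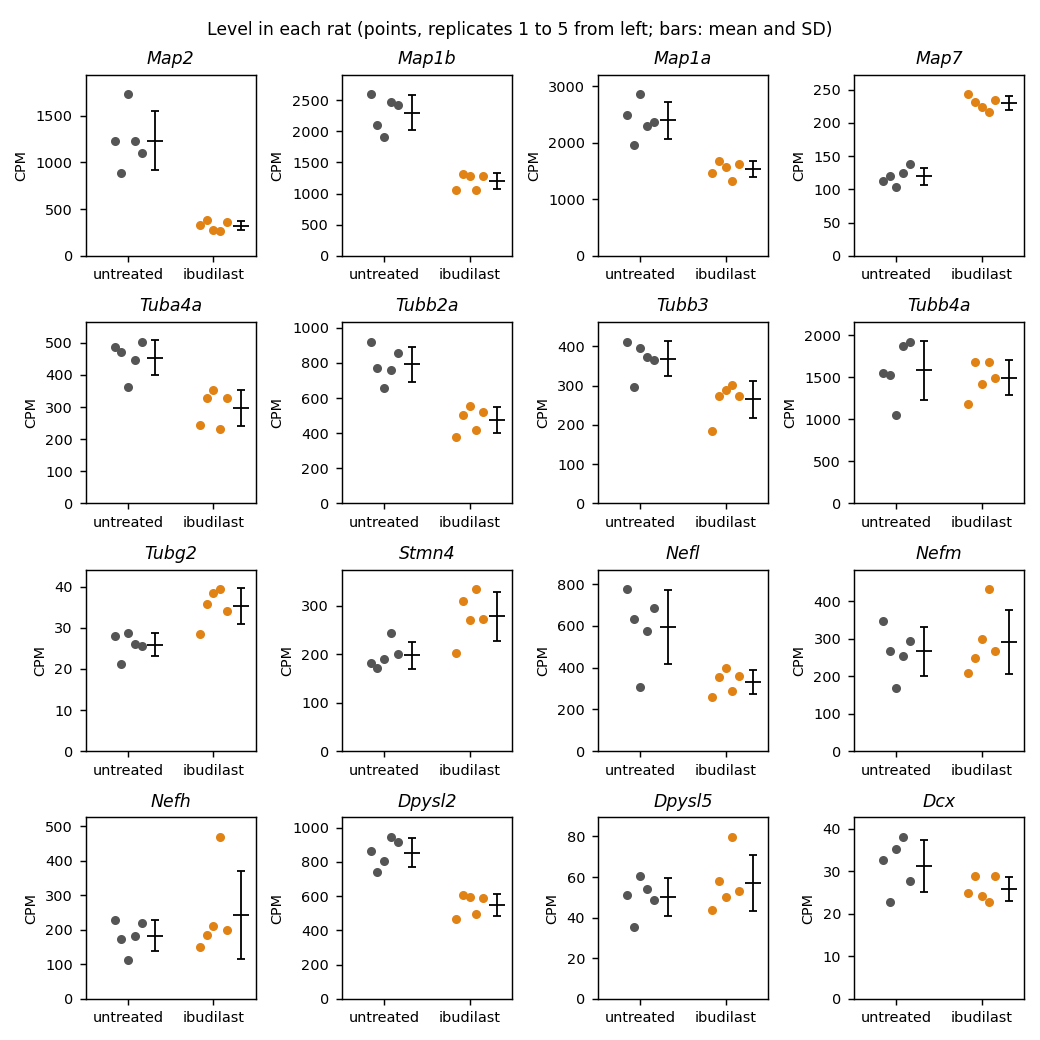
CPM of 16 genes (y axes, from 0) in each untreated and ibudilast rat, with the mean and SD. Map2, Map1b, Map1a, Tuba4a, Tubb2a and Dpysl2 show every ibudilast rat below every untreated rat, Map7 the reverse, and Nefh and Nefm a high point in ibudilast replicate 4.

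Whether these genes differed from each other in their change was tested on the ratio of their counts within each rat. Such a ratio does not depend on how libraries are scaled. The pairs were chosen with earlier results of these data known, and several share Map2 or Nefl. No share over other gene pairs was computed, and of single genes 47.1% changed. Over 15 pairs of members, 8 log2 ratios differed between the groups (exact permutation test over 252 assignments, two-sided, Benjamini-Hochberg over the 15 pairs; the smallest raw p possible is 0.00794). The log2 ratio of Map2 to Map1b was −0.93 ± 0.45 in untreated and −1.91 ± 0.21 in ibudilast rats (SD, n = 5; exact adjusted p = 0.017). Untreated replicate 3 had the highest ratio of its group, at −0.14, and the difference went from −0.99 to −0.79 without it. Against Map1a the difference for Map2 was −1.28, and against Map4 −1.84, both with the groups apart (exact adjusted p = 0.017 each). RNA of Map2 therefore fell relative to that of each of the 3 genes it was set against, of which Map4 itself did not pass. The ratio of Map1a to Map1b did not pass with all rats (0.30, exact adjusted p = 0.0714) and passed without untreated replicate 3 (0.43, 0.0132). As a share of the counts of the 9 genes, which is not corrected for transcript length, Map2 held 13.7 to 22.1% in untreated and 5.66 to 7.59% in ibudilast rats. Their sum spanned 6440.4 to 7835 CPM without and 4143 to 4998 CPM with ibudilast.

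**Figure D3:**
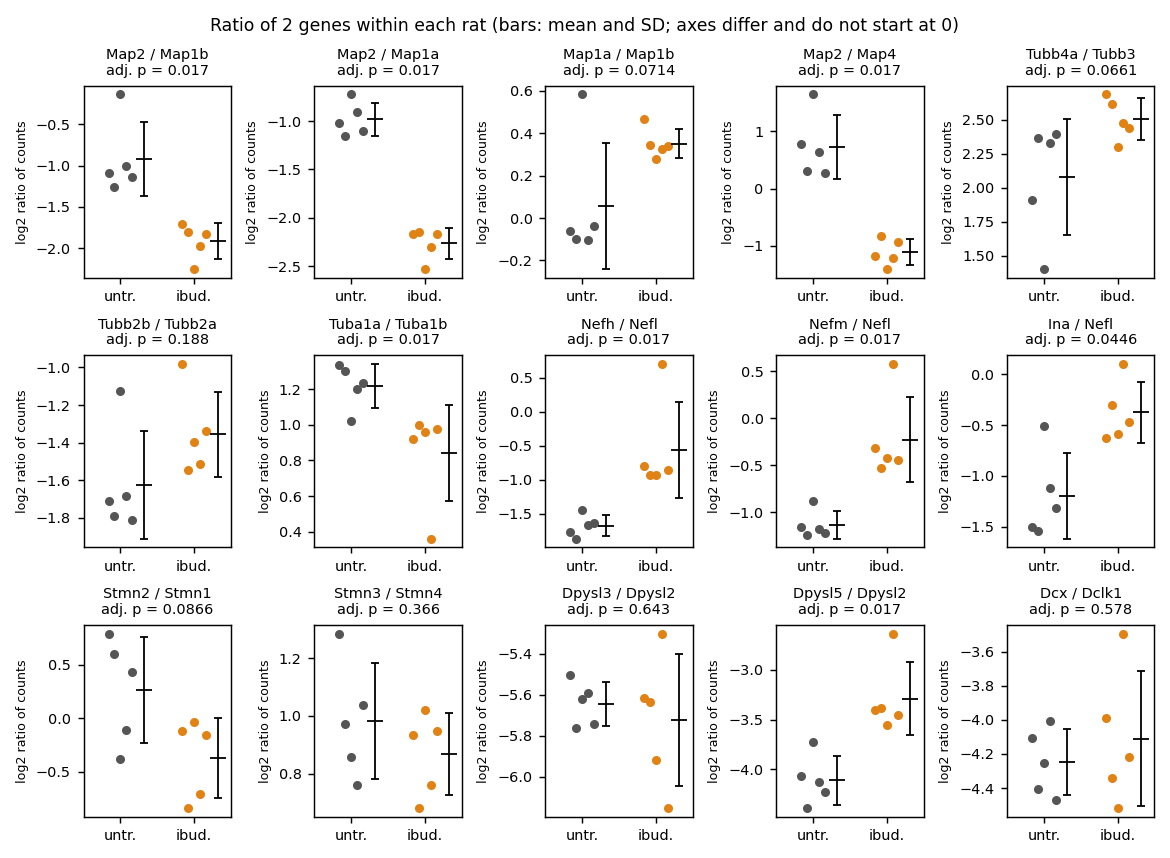
Log2 ratio of the counts of 2 genes within each rat (y axes differ between panels) for the 15 pairs, with the mean, the SD and the adjusted exact p. Ratios of Map2 to 3 other genes lie lower, and ratios of Nefm and Nefh to Nefl higher, in every ibudilast rat than in any untreated rat.

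Of 5 tested alpha tubulins, 3 fell (60%, against 22.8% of all genes) and 2 did not pass, with log2 fold changes from −0.61 to −0.028. Tuba4a, an isotype of adult neurons, was at 486, 472, 363, 445 and 503 CPM in untreated and at 243, 329, 353, 231 and 329 CPM in ibudilast rats. It fell by 0.61 ± 0.14 (adjusted p = 0.00494), and the groups came closest at replicate 3 of each. Tuba1a, a main alpha tubulin of neurons, was at 1633, 1398, 1536, 1606 and 1551 CPM in untreated and at 1087, 1242, 1286, 976 and 1274 CPM in ibudilast rats, and fell by 0.40 ± 0.10 (adjusted p = 0.00913). Tuba1c was at 243, 215, 246, 223 and 225 CPM in untreated and at 155, 176, 167, 196 and 167 CPM in ibudilast rats, and fell by 0.42 ± 0.08 (adjusted p = 0.00138). For none of these isotypes did the groups overlap. Tuba1b was at 647, 568, 757, 698 and 660.2 CPM in untreated and at 574, 623, 661, 759 and 648 CPM in ibudilast rats, largely the same range (−0.028, adjusted p = 0.85, and 0.019 with upper-quartile factors). The ratio of Tuba1a to Tuba1b was lower in every ibudilast rat than in any untreated rat, with a log2 difference of −0.38 (exact adjusted p = 0.017). Without ibudilast replicate 4, which held the lowest ratio, the difference was −0.26. Tuba8 spread widely, over 17.9 to 80.2 CPM without and 27.3 to 66.9 CPM with ibudilast, and did not pass (adjusted p = 0.555).

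Tuba1a, Tuba1b and Tuba1c are near-identical in coding sequence, and their expected counts were not whole numbers in any library, as happens where reads are divided between copies. The split between the 3 is thus uncertain, as is the ratio of Tuba1a to Tuba1b. Their sum was 2441 ± 151 CPM in the untreated and 1998 ± 124 CPM in the ibudilast group (SD, n = 5), and the ranges, 2182 to 2538 and 1816 to 2114 CPM, did not overlap. In the whole set, 18 of the 42 tested genes had non-whole counts (beyond a tolerance of 1e-06) in at least 1 library, and 24 were whole in all libraries. The 18 were every tested alpha and beta tubulin, Tubg1, Tubg2, Tubgcp6, Ina, Dcx and Map7. For Map7 this held in 40% of libraries, and for Tubgcp6, Ina and Dcx in all. Summed over the family, which does not depend on that split, alpha tubulins spanned 2728 to 3089 CPM without and 2105 to 2534 CPM with ibudilast and beta tubulins 3518 to 4537 CPM without and 2777 to 3578 CPM with ibudilast. Beta sums overlapped through untreated replicate 3 and alpha sums did not.

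Of 7 beta tubulins, 4 fell (57.1%, against 22.8% of all genes) and 3 did not pass. Tubb2a, a major neuronal beta tubulin, was at 921, 769, 659, 759 and 855 CPM in untreated and at 379, 503, 554, 418 and 521 CPM in ibudilast rats. It fell by 0.74 ± 0.13 (adjusted p = 0.00108). Its close copy Tubb2b, an isotype of developing neurons, was at 281, 222, 302, 236 and 244 CPM in untreated and at 192, 172, 211, 146 and 207 CPM in ibudilast rats, and fell by 0.47 ± 0.12 (adjusted p = 0.00887). Neither gene's groups overlapped, and the ratio of the copies did not pass (exact adjusted p = 0.188). Without untreated replicate 3 the log2 ratio of Tubb2b to Tubb2a was higher with ibudilast by 0.40 (exact adjusted p = 0.0216), against 0.27 with all rats. Reads can be shared between these copies too, and their sum was 1049 ± 99.9 CPM in the untreated and 661 ± 91.0 CPM in the ibudilast group (SD, n = 5), with no overlap.

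Tubb5, a beta tubulin of many cell types, was at 679.9, 601, 739, 665 and 658 CPM in untreated and at 405, 524, 531, 486 and 515 CPM in ibudilast rats, and fell by 0.44 ± 0.10 with no overlap (adjusted p = 0.0037). Tubb3, a common marker of neurons, was at 412, 296, 396, 374 and 366 CPM in untreated and at 185, 275, 289.9, 302 and 275 CPM in ibudilast rats. It fell by 0.48 ± 0.14 (adjusted p = 0.0165), and the groups overlapped through untreated replicate 2 and ibudilast replicate 4. Tubb4a, a brain isotype of both neurons and myelinating oligodendrocytes, was at 1552, 1523, 1047, 1878 and 1925 CPM in untreated and at 1187, 1687, 1426, 1681 and 1492 CPM in ibudilast rats. Here the groups overlapped widely (−0.085, adjusted p = 0.713). The ratio of Tubb4a to Tubb3 was higher by 0.42 on the log2 scale and did not pass (exact adjusted p = 0.0661), but it passed without untreated replicate 2 (0.49, 0.0446) or 5 (0.50, 0.0397). Tubb4b, an isotype of cilia and many cell types, went from 468 ± 63.0 to 405 ± 31.4 CPM (−0.21, adjusted p = 0.134) and passed without untreated replicate 3 (−0.31, adjusted p = 0.0103) or without the 4 libraries that stood apart (−0.20, adjusted p = 0.0225). The low-abundance Tubb6 was at 7.33 ± 2.52 and 5.72 ± 3.46 CPM (−0.36, adjusted p = 0.45). It passed without ibudilast replicate 4 (−0.83, adjusted p = 0.0211), whose 11.9 CPM was the highest of all rats.

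Promoter windows of Tubb2a and Tubb2b span 250 bases before to 50 after the start, from RefSeq on GRCr8. A motif of cAMP signalling is marked in them, as ibudilast inhibits enzymes that break down cyclic nucleotides. Both genes were picked after their falls were seen, and any part of the motif in these falls was not tested. The windows lie at chr17:31001936-31002235 and chr17:30952836-30953135, both on the + strand. Capitals mark TGACG, read as CGTCA on the other strand, the core of the cAMP response element, to which the cAMP-activated factor CREB binds.
Tubb2a: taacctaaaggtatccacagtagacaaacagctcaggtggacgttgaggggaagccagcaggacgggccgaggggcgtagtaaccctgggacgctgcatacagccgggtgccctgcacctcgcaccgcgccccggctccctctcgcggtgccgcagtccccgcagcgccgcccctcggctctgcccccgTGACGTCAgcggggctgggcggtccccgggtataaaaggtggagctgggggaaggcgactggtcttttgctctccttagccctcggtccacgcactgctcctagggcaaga
Tubb2b: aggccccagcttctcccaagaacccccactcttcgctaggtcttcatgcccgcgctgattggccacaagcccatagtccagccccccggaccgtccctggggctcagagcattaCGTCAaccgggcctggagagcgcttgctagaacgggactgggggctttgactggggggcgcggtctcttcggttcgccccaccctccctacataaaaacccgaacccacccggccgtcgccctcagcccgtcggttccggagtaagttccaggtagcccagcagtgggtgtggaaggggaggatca
The Tubb2a window held the full palindrome TGACGTCA, in which both cores overlap, from base 190 counted from its 5′ end, and the Tubb2b window a single core, on the other strand, from base 115. RefSeq windows matched 37 of the 45 genes by symbol, and Map4, Map6, Stmn2, Stmn4, Nefl, Nefm, Nefh and Dpysl2 had no match. TGACG was in 9 of the 37 windows (24.3%), against 21.2% of all 33469 windows, and TGACGTCA in 1 of 37 against 1.83%. The 9 genes were Tuba1c, Tuba4a, Tubb2a, Tubb2b, Tubb4a, Tubg1, Map1a, Crmp1 and Dclk1, and whether their change differed from that of genes without the motif was not tested. A match of letters describes the window and shows no binding.

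Gamma tubulins and their ring proteins, which nucleate microtubules, held 3 rises (50%, against 24.3% of all genes), 0 falls and 3 that did not pass. The share that changed, 50%, was near the 47.1% of all genes. Tubgcp6, a ring component, was at 44.6, 44.1, 40.2, 41.6 and 43.5 CPM in untreated and at 54.5, 59.1, 51.4, 49.5 and 50.7 CPM in ibudilast rats, and rose by 0.31 ± 0.07 with no overlap (adjusted p = 0.00301). Tubg1, the main gamma tubulin of dividing cells, was at 51.5, 48.2, 45.8, 48.4 and 55.1 CPM in untreated and at 53.4, 66.3, 63.4, 77.6 and 61.4 CPM in ibudilast rats. Only untreated replicate 5 was above the lowest ibudilast rat, and Tubg1 rose by 0.37 ± 0.10 (adjusted p = 0.00945). Tubg2, its brain-enriched copy, was at 28.1, 21.3, 28.7, 26.0 and 25.7 CPM in untreated and at 28.6, 35.9, 38.6, 39.4 and 34.1 CPM in ibudilast rats, and rose by 0.44 ± 0.11 (adjusted p = 0.00632). Reads of these copies may also be shared, and expected counts of Tubgcp6 were not whole in any library either. Tubgcp2 (−0.091, 42.1 ± 5.26 to 39.5 ± 1.55 CPM) and Tubgcp3 (−0.13, 35.6 ± 1.57 to 32.5 ± 1.66 CPM), core ring proteins, did not pass, although the groups of Tubgcp3 were apart. Tubgcp5 went from 19.8 ± 0.862 to 23.0 ± 2.44 CPM (0.21, adjusted p = 0.0565) and passed without ibudilast replicate 3 (0.26, adjusted p = 0.0228) and with upper-quartile factors (0.27, 0.0387).

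Among the 4 stathmins, 2 rose (50%, against 24.3% of all genes) and 2 did not pass. Stmn4 was at 182, 172, 189.9, 243 and 200.5 CPM in untreated and at 202, 309, 271, 333 and 272 CPM in ibudilast rats, and rose by 0.49 ± 0.14 (adjusted p = 0.0141). Stmn3 was at 443, 337, 344, 412 and 411 CPM in untreated and at 386, 496, 549.7, 564 and 524 CPM in ibudilast rats, and rose by 0.37 ± 0.12 (adjusted p = 0.0279). In both, ibudilast replicate 1 lay inside the untreated range and the other 4 ibudilast rats above it. Stmn3 no longer passed without untreated replicate 2 (adjusted p = 0.0786), 3 (0.0609) or 4 (0.0543), without ibudilast replicate 3 (0.063), 4 (0.0686) or 5 (0.0598), and without the low-count filter (0.0517), at 0.30 to 0.38. Stmn1, the broadly expressed founding member, was at 290.1, 263, 497, 507 and 354 CPM in untreated and at 356, 637, 490.1, 538 and 482 CPM in ibudilast rats (0.39, adjusted p = 0.159). Stmn2, a protein of growth cones, was at 502, 399, 381, 468 and 479 CPM in untreated and at 328, 357, 478, 329 and 434 CPM in ibudilast rats (−0.21, adjusted p = 0.208). Both overlapped between the groups. The log2 ratio of Stmn2 to Stmn1 differed by −0.64 and did not pass (exact adjusted p = 0.0866), though it did without untreated replicate 3 (−0.80, 0.0216). That of Stmn3 to Stmn4 differed by −0.11 (exact adjusted p = 0.366).

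The neurofilament chains did not move together, with Nefl lower and Nefm, Nefh and Ina not passing. Nefl, the light chain, was at 775, 631, 308, 574 and 684 CPM in untreated and at 259, 356, 399.9, 289 and 361 CPM in ibudilast rats. Untreated replicate 3 lay inside the ibudilast range and the other 4 untreated rats above it, and Nefl fell by 0.84 ± 0.22 (adjusted p = 0.0105). Nefm, the medium chain, was at 348, 267, 167, 254 and 293 CPM in untreated and at 208, 247, 298, 432 and 266 CPM in ibudilast rats. Nefh, the heavy chain, was at 229, 174, 113, 181 and 220.5 CPM in untreated and at 149, 186, 211, 469 and 199 CPM in ibudilast rats. For both chains ibudilast replicate 4 was the highest of all rats, and the groups overlapped, at 0.13 (adjusted p = 0.677) and 0.41 (adjusted p = 0.307). Without that rat Nefm was at −0.087 and Nefh at −0.0017. Ina, alpha-internexin, was at 274, 217, 216, 265 and 275 CPM in untreated and at 167, 289, 267, 309.8 and 262 CPM in ibudilast rats (0.054, adjusted p = 0.804).

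Set against Nefl within each rat, the other 3 chains were higher with ibudilast. The log2 ratio of Nefh to Nefl was −1.67 ± 0.15 in untreated and −0.56 ± 0.71 in ibudilast rats, a difference of 1.11, and that of Nefm to Nefl was −1.13 ± 0.15 in untreated and −0.23 ± 0.46 in ibudilast rats, a difference of 0.91 (SD, n = 5; exact adjusted p = 0.017 each). The groups were apart for both ratios, untreated replicate 3 included. Without ibudilast replicate 4 the differences were 0.79 and 0.71, and both still passed (exact adjusted p = 0.0238 each). The ratio of Ina to Nefl was higher by 0.82 (exact adjusted p = 0.0446), with overlap, and was lost without untreated replicate 2 (0.73, 0.0529) or ibudilast replicate 2 (0.80, 0.0595), 4 (0.70, 0.0595) or 5 (0.84, 0.0595). As a share of all neurofilament and internexin counts, not corrected for length, Nefl held 38.3 to 49.0% in untreated and 19.3 to 34.0% in ibudilast rats. Nefh held 14.1 ± 0.538% and 20.8 ± 5.92% (SD, n = 5).

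**Figure D4:**
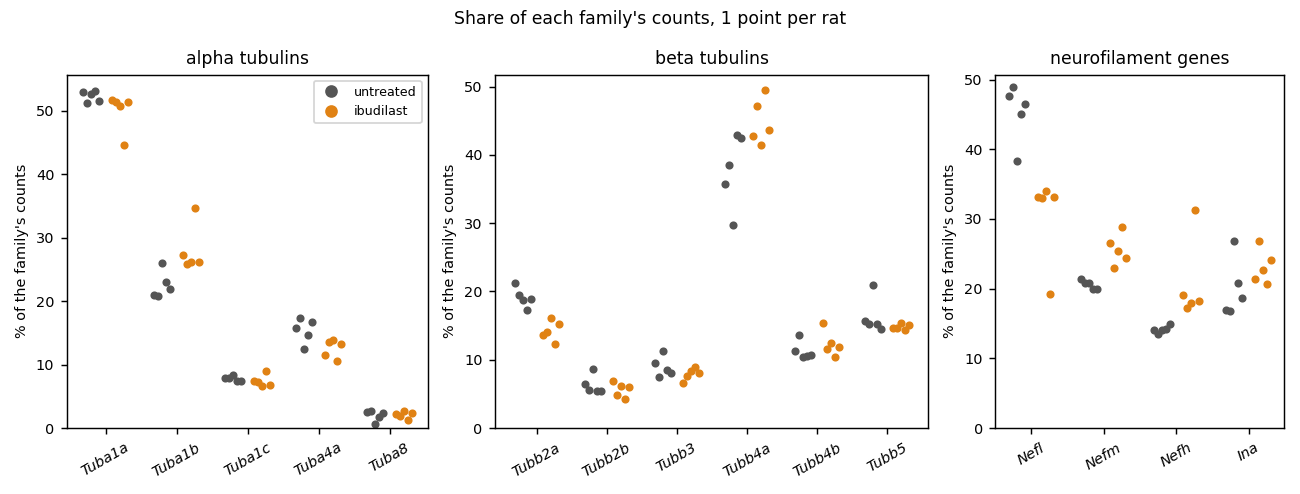
Share of the counts of each family held by each gene (y axis, percent, not corrected for length), 1 point per rat, replicates 1 to 5 from left. Shares of Nefl and Tubb2a are lower in every ibudilast rat, and shares of Nefm and Nefh are higher.

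Collapsin response mediator proteins bind tubulin dimers and take part in axon growth. Of 5 members, 3 fell (60%, against 22.8% of all genes) and 2 did not pass. Dpysl2, the most studied of them, was at 863, 743, 803, 946 and 917 CPM in untreated and at 467, 607, 592, 497 and 587 CPM in ibudilast rats, and fell by 0.64 ± 0.11 with no overlap (adjusted p = 8.39e-04). Dpysl3 was at 19.0, 13.6, 16.3, 19.6 and 17.1 CPM in untreated and at 9.50, 12.2, 9.76, 12.6 and 8.22 CPM in ibudilast rats, and fell by 0.71 ± 0.14, also with no overlap (adjusted p = 0.00222). Crmp1 was at 237, 205, 161, 188 and 225 CPM in untreated and at 112, 143, 169, 101 and 152 CPM in ibudilast rats. It fell by 0.58 ± 0.15 (adjusted p = 0.0102), and untreated replicate 3 lay below ibudilast replicate 3. Dpysl5, a member of developing neurons, was at 51.4, 35.5, 60.7, 54.0 and 48.9 CPM in untreated and at 44.0, 57.9, 50.3, 79.8 and 53.4 CPM in ibudilast rats (0.19, adjusted p = 0.404). Its ratio to Dpysl2 was higher in every ibudilast rat, by 0.82 on the log2 scale (exact adjusted p = 0.017), while the ratio of Dpysl3 to Dpysl2 was at −0.079 (exact adjusted p = 0.643). Dpysl4 went from 47.8 ± 6.44 to 54.1 ± 6.26 CPM (0.18, adjusted p = 0.205), and with the 4 libraries that stood apart left out it passed (0.36, adjusted p = 0.00839).

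Neither doublecortin gene passed. Dcx, a microtubule protein of newborn and migrating neurons, was at 32.6, 22.7, 35.2, 38.0 and 27.7 CPM in untreated and at 24.8, 28.9, 24.2, 22.6 and 28.8 CPM in ibudilast rats (−0.27, adjusted p = 0.132). The 2 lowest values came 1 from each group, and without untreated replicate 2 Dcx passed (−0.39, adjusted p = 0.0168). Dclk1, a kinase with doublecortin domains, was at 562, 480.1, 670.4, 612 and 614 CPM in untreated and at 395, 586, 555, 255 and 536 CPM in ibudilast rats (−0.34, adjusted p = 0.206), and 255 CPM in ibudilast replicate 4 was the lowest. Their ratio did not pass (exact adjusted p = 0.578). Of 8 measured markers of immature neurons, 2 fell (25%, against 22.8% of all genes) and 6 did not pass. Those that fell were Neurod1 (−1.27, adjusted p = 0.00279) and Ncam1 (−0.63, adjusted p = 8.65e-05), the second of which mature neurons also express. The 8 log2 fold changes ran from −1.27 to 0.59, with a median of −0.70. These markers summed to 458 to 613 CPM in the untreated and 364 to 408 CPM in the ibudilast group, with no overlap. A plain sum gives most weight to the most abundant markers. Taken singly, 1 of the 8 had groups apart (12.5%, against 33.4% of all genes).

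Neuron markers stood beside these falls. Of 14 general neuron markers, 6 fell (42.9%, against 22.8% of all genes), 1 rose (7.1%, against 24.3%) and 7 did not pass. All were detected in every rat, and their sum was 9051 to 13020.3 CPM in the untreated and 5729 to 11049 CPM in the ibudilast group. The presynaptic genes Syt1 and Snap25 fell by 1.42 ± 0.21 and 0.86 ± 0.19 on the log2 scale, whereas Rbfox3, a nuclear marker of mature neurons, was at −0.34 (adjusted p = 0.188) and Elavl3, an RNA-binding protein of neurons, rose by 0.45 ± 0.08 (adjusted p = 7.70e-04). In bulk tissue, fewer cells of a type and less RNA per cell cannot be told apart, and the part of cell composition in the changes of cytoskeleton genes was not tested. Astrocyte markers summed to 4940.3 to 8791 CPM in the untreated and 5101 to 5955 CPM in the ibudilast group (5 of 9 fell, 55.6%). Microglia markers summed to 646 to 1214 CPM in the untreated and 526 to 633 CPM in the ibudilast group (6 of 11 fell, 54.5%). Endothelial markers summed to 321 to 595 CPM in the untreated and 154 to 299 CPM in the ibudilast group (5 of 8 fell, 62.5%). These shares stand against falls in 22.8% of all genes. Every marker of these lists was detected in every rat. Ependymal markers, of cells that carry tubulin-rich cilia, summed to 25.1 to 95.9 CPM in the untreated and 32.5 to 218 CPM in the ibudilast group. The 218 CPM was in ibudilast replicate 1. All 7 markers lay above 0, at log2 fold changes of 0.36 to 1.16, but 0 of 7 passed edgeR's quasi-likelihood test.

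Other genes that act on microtubules and filaments were read from 6 lists. Of 98 listed genes, 20 had no row under their symbol in the counts used here and 76 were tested. Of these 76, 17 rose, 18 fell and 41 did not pass. The share that changed, 46.1%, was near the 47.1% of all genes (24.3% higher and 22.8% lower), against which the counts of each list are to be read, and differences between the lists were not tested. Among proteins at microtubule ends 9 of 16 fell (56.3%), 1 rose (Camsap3) and 6 did not pass. Mapre2, a plus-end binding protein, fell from 381 ± 21.5 to 246 ± 23.3 CPM (−0.63, adjusted p = 1.99e-04), Camsap2, which guards minus ends, by 0.72 ± 0.11 and Clip3, a linker protein, by 0.67 ± 0.12. Of 6 severing genes, 2 fell, Katnal1 (−0.55) and Katnbl1 (−0.35), and 4 did not pass.

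Of 12 enzymes that modify tubulin, 7 rose (58.3%, against 24.3% of all genes), 0 fell and 5 did not pass, Ttl (−0.41) and Agtpbp1 (−0.40) among them. A further 10 genes of that list had no row under their symbol in the counts used here. Agbl4, which trims glutamate chains from tubulin, rose from 3.83 ± 0.840 to 15.7 ± 1.60 CPM (2.03, adjusted p = 1.30e-05). Its expected counts were not whole in any library, so its reads may be shared too. Ttll3, a tubulin glycylase, rose by 1.40 ± 0.20 and Ttll9, of the same ligase family, by 1.66 ± 0.28. Both had no overlap and were highest, at 18.2 and 21.1 CPM, in ibudilast replicate 1, a library with high choroid plexus and ependymal marker sums. Untreated means were low, at 5.34 CPM for Ttll3 and 4.32 CPM for Ttll9. Of the others that rose, Vash2 was at 2.42, Ttll10 at 0.314, Agbl5 at 9.10 and Sirt2 at 229.8 CPM in untreated rats. Vash2 was highest in ibudilast replicate 4 (16.4 CPM) and Ttll10 in ibudilast replicate 1 (3.69 CPM). Tubulin folding genes were mixed, with 6 of 19 higher, 4 lower and 9 not passing. The cofactor Tbce rose by 0.44 ± 0.05, its partner Arl2 by 0.61 ± 0.09 and the prefoldin subunit Pfdn1 by 0.59 ± 0.08. Expected counts of Tbce were also not whole in any library. The 4 that fell were the chaperonin subunits Cct2, Cct6a, Cct8 and Tcp1, at −0.72 to −0.25.

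Among 15 other microtubule-associated genes, 1 rose, 2 fell and 12 did not pass. Tppp, a tubulin-polymerising protein of oligodendrocytes, fell by 0.67 ± 0.12 (adjusted p = 0.00106), while 8 of 17 oligodendrocyte markers rose (47.1%, against 24.3% of all genes). The kinase Mark1, which phosphorylates these proteins, fell by 0.39 ± 0.11, and Tppp3 rose by 0.93 ± 0.32 with a wide spread in ibudilast rats (35.6 ± 19.6 CPM). Of 8 other intermediate filament genes, 2 rose, 1 fell and 5 did not pass. Prph, peripherin, rose from 3.87 ± 1.74 to 11.0 ± 3.94 CPM (1.51, adjusted p = 0.00467) and Sync, syncoilin, by 0.75 ± 0.17, while Synm, synemin, fell by 0.42 ± 0.15.

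**Figure D5:**
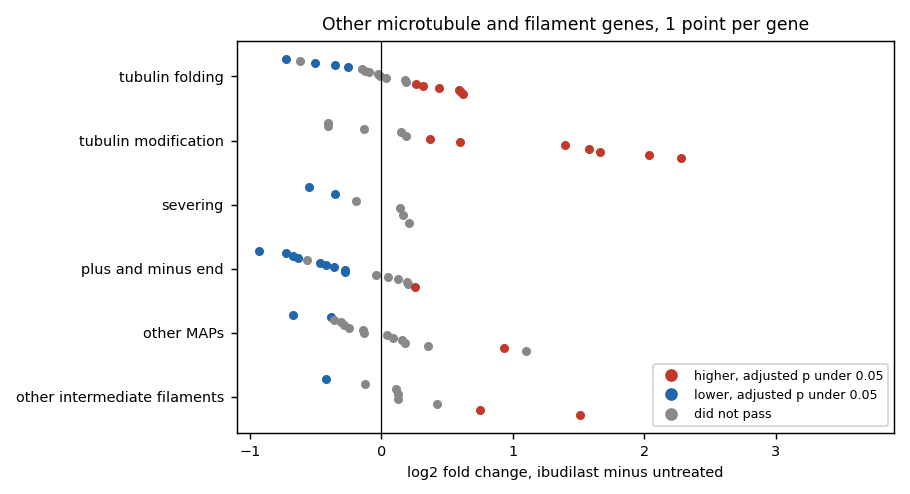
Log2 fold change (x axis, ibudilast minus untreated) of each tested gene of 6 further lists, 1 point per gene. Tubulin-modifying enzymes have 7 rises and 0 falls among 12, microtubule end proteins 1 rise and 9 falls among 16. Of all genes tested, 24.3% rose and 22.8% fell.

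Spread between rats differed among the genes. The coefficient of variation over 5 rats had a median of 12.4% in untreated and 13.7% in ibudilast rats. In untreated rats it was lowest for Map7d1 (3.96%) and highest for Tuba8 (42.6%). In ibudilast rats it was lowest for Tubgcp2 (3.94%) and highest for Tubb6 (60.5%), with Nefh at 53.0%.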

How the data were processed

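The authors deposited unnormalized expected counts per gene symbol and, in another table, a normalized signal. Per the submitters' processing notes, bcl2fastq, Bowtie2 2.1.0, RSEM 1.2.15, edgeR and rn6 were used, without a stated role. The annotation and filters are not given in the sources used here. Per the labels, libraries came from a stranded mRNA kit. The deposited signal was each rounded count over a TMM-scaled library size: 100% of values came back as whole reads within 0.01, and the test on these reads made 20 calls in the set.

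Expected counts (12.0% not whole within 1e-06) were rounded and tested by edgeR 4.0.16 in R 4.3.3 (TMM factors, filterByExpr, robust fitting). The model was fitted on the whole table, after tests on simulated data. Shared replicate numbers gave no sign of pairing the rats (correlation of deviations over 0.1 in 1 of 5 pairs). Alternatives used RLE, upper-quartile or no factors, DESeq2 1.42.0, limma 3.58.1 (voom, and trend on log2 of the deposited signal plus 1), other filters, a replicate block and fewer libraries. For ratios 0.5 was added to each count. Values in every rat are given for up to 3 genes per role by smallest p, for pairs described, and for Map2, Tubb3, Tubb4a, Dcx, Nefl, Nefm and Nefh, and up to 3 genes are named per other list (the result of 1 gene is not reported here). Camsap3, Ttl, Agtpbp1, Vash2, Ttll10, Agbl5, Sirt2, the chaperonin subunits and single markers were named after their values were seen. Genes, pairs and lists were chosen with earlier results of these data known. The p-values set the difference between the groups against the spread between these rats, and do not separate treatment from storage.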

Additional observations from a re-analysis of the deposited data

Results flagged for a closer look

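A value was singled out where its gap to the nearest rat of its group of 5 exceeded the 95% limit of Dixon's test, which chance passes in about 5% of groups. Of 114 groups of values (42 genes and 15 ratios in both treatments), 12 held such a value. Chance alone would give 5.7, and the ratios share genes.

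Ibudilast replicate 4 held 7 of them. Its Nefh was at 469 CPM against at most 211 in the other ibudilast rats, its Tubb6 at 11.9 CPM against at most 4.80, and its Tubb4b at 351 CPM against at least 407. Its log2 ratios of Nefh to Nefl (0.70), Nefm to Nefl (0.58) and Dpysl5 to Dpysl2 (−2.64) were the highest of its group, and that of Tuba1a to Tuba1b (0.36) the lowest.

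Untreated replicate 3 held 4, all ratios above the rest of its group: Map2 to Map1b at −0.14, Map1a to Map1b at 0.58, Tubb2b to Tubb2a at −1.12 and Nefm to Nefl at −0.88. The last value was Tubb3 in ibudilast replicate 1, at 185 CPM against at least 275 in the other ibudilast rats.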

How the results depend on the processing

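Over 21 alternatives the set held 12 to 15 falls and 5 to 8 rises, and 17 to 20 of its 20 calls remained in the same direction. RLE factors, DESeq2, limma-voom, limma-trend and the stricter filter kept all 20. Of 882 values of single genes under alternatives, 846 kept their direction and side of the threshold. Calls that single libraries changed are given beside each gene. Direction turned only in genes and ratios that did not pass. With upper-quartile factors Tuba1b was at 0.019 and Map7d1 at 0.030, and with library size alone at 0.051 and 0.051. Without the 4 libraries that stood apart Map7d1 was at 0.086, Nefm at −0.14, Nefh at −0.081 and the ratio of Dcx to Dclk1 at −0.16. Leaving out 1 rat at a time gave −0.11 to 0.015 for Tuba1b, −0.059 to 0.046 for Map7d1, −0.087 to 0.24 for Nefm, −0.0017 to 0.54 for Nefh, −0.044 to 0.18 for Ina, −0.019 to 0.24 for the ratio of Dcx to Dclk1 and −0.18 to 0.028 for that of Dpysl3 to Dpysl2. The cause of these turns was not tested. The replicate block gave 12 falls and 5 rises, with Tubb3, Stmn3 and Nefl no longer passing (adjusted p = 0.0501, 0.0839 and 0.0542). Same-numbered rats had correlations of deviations from −0.328 to 0.416, and 1 of 10 libraries correlated best with its own number, so the numbers did not pair the rats. Of the 15 ratios, 8 differed with all rats, 0 with the replicate block and 0 without the 4 libraries, but those designs cannot pass, since their smallest raw p is 0.0625 and 0.1. Storage, which was confounded with treatment, transcript length and shared reads of tubulin copies and of other genes with non-whole counts limit what the levels show.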
